A study of Mus musculus with 12 samples.

Results

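The genes described here are 10 mouse genes whose human counterparts are known from primary microcephaly, an inherited condition in which the brain grows too small: Aspm, Wdr62, Cdk5rap2, Cenpj, Stil, Mcph1, Cep152, Cep135, Cep63 and Ncapd2. They were chosen by gene symbol, and all 10 were found once among the 34102 genes of the count table. RNA-seq covered 12 libraries in 4 groups of 3. NPC labelled knockdown are primary cultured neural progenitor cells of C57BL/6 cortex, infected with lentivirus for Srsf10 knockdown. The multiplicity of infection was 30, and RNA was extracted 72 h after infection. The NPC controls are labelled WT, with the same multiplicity and time after infection. The labels do not say whether they received a control virus, and if not, infection and knockdown cannot be told apart. Cortex labelled cKO is cortex of C57BL/6 mice of genotype Srsf10 flox/flox Nestin-Cre+, in which the Nestin promoter drives Cre in neural progenitors, and its control is cortex of Srsf10 flox/flox Nestin-Cre- mice. Both cortex groups carry the floxed allele, and no group with Nestin-Cre alone was analysed here, so effects of Cre itself and of the deletion cannot be told apart; the labels give no age. The labels number the libraries but do not say that they came from separate animals or cultures, so p-values measure the spread between these libraries, which may be technical.

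Srsf10, the splicing regulator named in both treatments, did not pass the test in either system. Its level was 240.5, 224.1 and 220.5 CPM (read counts scaled to library size by the trimmed mean of M-values) in NPC labelled knockdown, against 253.3, 230.1 and 227.5 CPM in NPC controls, and it averaged 207 ± 18.9 CPM in labelled cKO cortex and 204 ± 10.0 CPM in control cortex (SD, n = 3 each). The log2 fold change was -0.05 in NPC (adjusted p = 0.530, edgeR's quasi-likelihood test) and 0.03 in cortex (adjusted p = 0.917, same test), so the groups are called by their labels throughout. Whole-gene counts do not show whether a floxed exon was removed. Libraries held 26074094 to 36713205 counts. Progenitor markers were abundant in NPC, where the summed level of Nes, Sox2, Pax6, Hes5 and Vim was 5543 to 6814 CPM in labelled knockdown and 5827 to 6150 CPM in control libraries. The sum holds opposite changes: with same-numbered libraries compared as pairs, Sox2 fell by 0.50 (adjusted p = 8.49e-05, edgeR's quasi-likelihood test; 0.0667 unpaired) and Nes rose by 0.21 (adjusted p = 0.0198; 0.287 unpaired) on the log2 scale, and the other 3 did not pass the test. Ttr, a choroid plexus gene, stood above 1000 CPM in 1 cortex library of each group, cKO replicate 3 and control replicate 2. By Ddx3y, a Y-linked gene, replicate 3 was male and replicates 1 and 2 were female in both NPC groups, so sex and replicate number cannot be told apart there. Labelled cKO cortex had 2 female libraries and 1 male, and control cortex had 1 female and 2 male.

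Neural progenitors of the cortex divide at the ventricular surface, and each division needs duplicated centrioles, a bipolar spindle and condensed chromosomes. Loss of the proteins encoded by these genes is known to disturb spindle orientation, slow mitosis or reduce centriole number, and so to deplete progenitors. Aspm and Wdr62 act at spindle poles; Cdk5rap2 organises the pericentriolar material that nucleates microtubules; Cep152, Cep63, Cenpj, Stil and Cep135 act in building new centrioles; Ncapd2 is a subunit of condensin I, and Mcph1 restrains chromosome condensation.

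Promoter sequence is shown because sequence elements bound by the cell cycle complexes DREAM and MuvB are known to time the expression of mitotic genes. Of the 10 genes, 9 matched the RefSeq promoter table (build GRCm38.p6, from 250 bases before to 50 bases after each annotated start), and Mcph1 did not. The 3 motifs below were searched on both strands. The cell cycle homology region (CHR, TTTGAA or TTCGAA) was in the promoters of 4 genes and in 19.2% of all 32851 promoters. The windows below hold 30 bases each, read along the gene's strand, with the CHR letters in capitals; they lie at chr1:139454767-139454796 (+) for Aspm, chr6:125191692-125191721 (-) for Ncapd2, chr2:125625247-125625276 (-) for Cep152 and chr4:70410392-70410421 (-) for Cdk5rap2.
Aspm: ggaggcgcgataTTTGAAccgagcaaaagc
Ncapd2: cagccgttgaggTTTGAAcagggaattgcg
Cep152: actggcgccctcTTCGAAcagccgcgctct
Cdk5rap2: cggcggctgcggTTTGAAttccagcggcgc

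The CCAAT box (CCAAT, bound by NF-Y) was in 6 of the 9 gene promoters, those of Aspm, Wdr62, Stil, Cep152, Cep135 and Ncapd2, and in 37.4% of all promoters. An E2F motif (TTTCCCGC, TTTGGCGC, TTTGCCGC or TTTCGCGC) was in 3, those of Wdr62, Cep63 and Ncapd2, and in 2.26% of all promoters. No match of one motif overlaps a match of another in these promoters. The first window below is from Stil, at chr4:115000090-115000119 (+), with the CCAAT letters in capitals. The others show the E2F letters in capitals, in Ncapd2 at chr6:125191576-125191605 (-) and in Wdr62 at chr7:30280400-30280429 (-). A match of letters is a description of the sequence and not evidence of binding.
Stil: gccgggcttctggCCAATcagcaggcgcgg
Ncapd2: ccatctcgttgTTTGGCGCgtatcctgccc
Wdr62: gtggcgccggcTTTCCCGCggccattcgct

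In NPC, 5 of the 10 genes rose in labelled knockdown and none fell when same-numbered libraries were compared as pairs. Stil was 1.57-fold, Aspm 1.54-fold and Ncapd2 1.52-fold higher, Cenpj was 1.35-fold higher and Cep152 was 1.22-fold higher. Among all 14258 genes tested, 24.7% were called in either direction: 11.9% were called higher and 12.8% lower. The median log2 fold change of the 10 genes was 0.24, beside 0.00 over all genes tested, and 7 of the 10 were higher in all 3 pairs, which held for 25.8% of all genes. For 0 of the 10 did the unpaired groups separate without overlap, as they did for 23.5% of all genes. These calls rest on the pairing: without the replicate block, 0 of the 10 passed, beside 1.89% of all genes, and 3 had an unadjusted p under 0.05, beside 18.3%. Of the 4 genes with CHR letters shown above, Aspm, Ncapd2 and Cep152 rose and Cdk5rap2 did not pass the test. Stil and Cenpj rose and have no CHR letters in the searched window. Of the 6 with a CCAAT box, Aspm, Stil, Cep152 and Ncapd2 rose, and Wdr62 and Cep135 did not pass. Of the 3 with an E2F motif, Ncapd2 rose, and Wdr62 and Cep63 did not pass. A link between motif and change was not tested. In bulk RNA, a change in the number of dividing cells and a change in RNA per cell cannot be told apart.

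**Figure D1:**
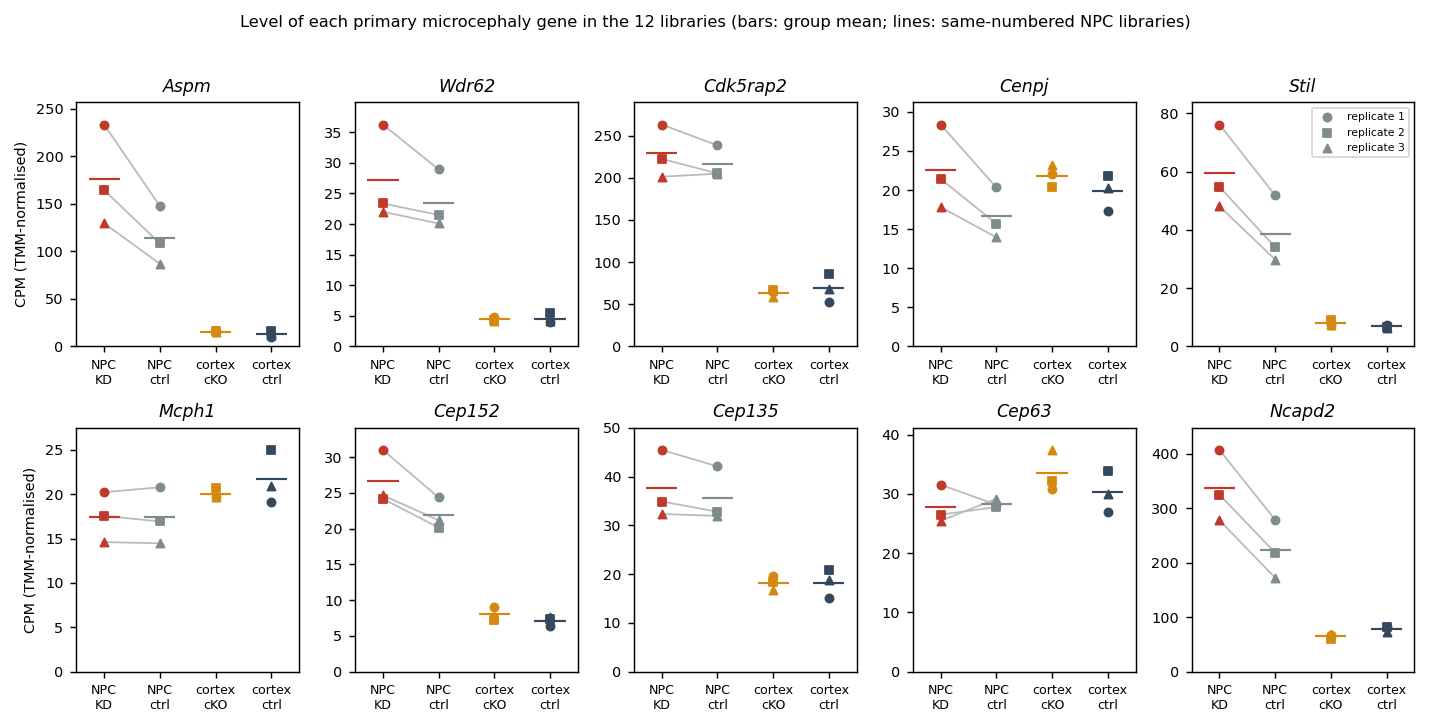
Level of each of the 10 genes in CPM (vertical axes start at 0) in the 12 libraries, by group; points are libraries, bars are group means, and lines join NPC libraries of the same number. Every line for Aspm, Stil, Ncapd2, Cenpj and Cep152 is higher in labelled knockdown than in control, and the cortex groups overlap for 9 of the 10 genes.

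At the spindle pole, Aspm, which focuses microtubule minus ends, had 233.4, 164.3 and 129.5 CPM in NPC labelled knockdown replicates 1, 2 and 3, against 147.7, 108.4 and 86.83 CPM in the controls of the same numbers. Each labelled knockdown library exceeded its partner, but the groups overlapped, since labelled knockdown replicate 3 lay below control replicate 1. The log2 ratios of the pairs were 0.66, 0.60 and 0.58, and the fitted log2 fold change was 0.62 (SE 0.05, adjusted p = 2.68e-06 with the replicate block and 0.254 without it, edgeR's quasi-likelihood test). Wdr62, a spindle pole scaffold that binds the JNK kinase, had 36.28, 23.37 and 22.00 CPM in labelled knockdown and 28.94, 21.49 and 20.09 CPM in controls. Replicate 1 stood apart from replicates 2 and 3 in both groups. Its log2 ratios were 0.33, 0.12 and 0.13, and it did not pass the test (log2 fold change 0.20, SE 0.08, adjusted p = 0.0700).

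Among the genes that build centrioles, Stil, the partner of the kinase Plk4 in starting a new centriole, had 76.17, 54.76 and 48.06 CPM in labelled knockdown, against 51.87, 34.06 and 29.80 CPM in controls. The increase appeared in each pair, with log2 ratios of 0.55, 0.69 and 0.69, although labelled knockdown replicate 3 lay below control replicate 1. The fit gave Stil 0.65 on the log2 scale (SE 0.06, adjusted p = 6.48e-06 with the block and 0.234 without it). Cenpj, which sets centriole length through tubulin binding, had 28.38, 21.42 and 17.82 CPM in labelled knockdown and 20.34, 15.69 and 13.95 CPM in controls. The pairs again all moved upward while the groups overlapped. Its log2 fold change was 0.44 (SE 0.08, adjusted p = 0.00152 with the block and 0.309 without it).

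Cep152, the scaffold that recruits Plk4 to the parent centriole, had 31.00, 24.16 and 24.66 CPM in labelled knockdown, against 24.35, 20.14 and 21.16 CPM in controls. Labelled knockdown replicate 2 was the one library below the highest control. The log2 fold change was 0.28 (SE 0.07, adjusted p = 0.0125 with the block and 0.292 without it). The call was also lost with DESeq2 and the block (adjusted p = 0.0572) and when replicate 3 was left out (adjusted p = 0.0690, edgeR). Cep63, which forms a ring with Cep152 around the centriole, had 31.54, 26.50 and 25.44 CPM in labelled knockdown and 28.18, 27.76 and 29.17 CPM in controls. Its pairs disagreed in direction, with log2 ratios of 0.16, -0.07 and -0.20, and it did not pass the test (log2 fold change -0.03, 95% interval -0.20 to 0.15). Cep135, a structural protein of the centriole wall, had 45.48, 34.89 and 32.35 CPM in labelled knockdown and 42.10, 32.82 and 31.94 CPM in controls. The pair differences were small and all upward, and the log2 fold change of 0.08 did not pass the test (95% interval -0.05 to 0.21).

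Cdk5rap2, of the pericentriolar material, had 263.1, 222.3 and 201.2 CPM in labelled knockdown and 238.3, 205.2 and 204.8 CPM in controls. Its pair of replicate 3 ran the other way from those of replicates 1 and 2. The log2 fold change was 0.08 (95% interval -0.03 to 0.20, adjusted p = 0.274).

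In chromosome condensation, Ncapd2 had 406.9, 324.9 and 277.7 CPM in labelled knockdown, against 278.8, 218.2 and 172.4 CPM in controls. Labelled knockdown replicate 3 lay just below control replicate 1, and every pair was higher in labelled knockdown. The log2 fold change was 0.61 (SE 0.05, adjusted p = 3.04e-06 with the block and 0.181 without it). Mcph1 had 20.22, 17.56 and 14.60 CPM in labelled knockdown and 20.78, 16.93 and 14.47 CPM in controls, so the libraries of each number almost coincided. Its log2 fold change was 0.01 (95% interval -0.16 to 0.19, adjusted p = 0.922).

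**Figure D2:**
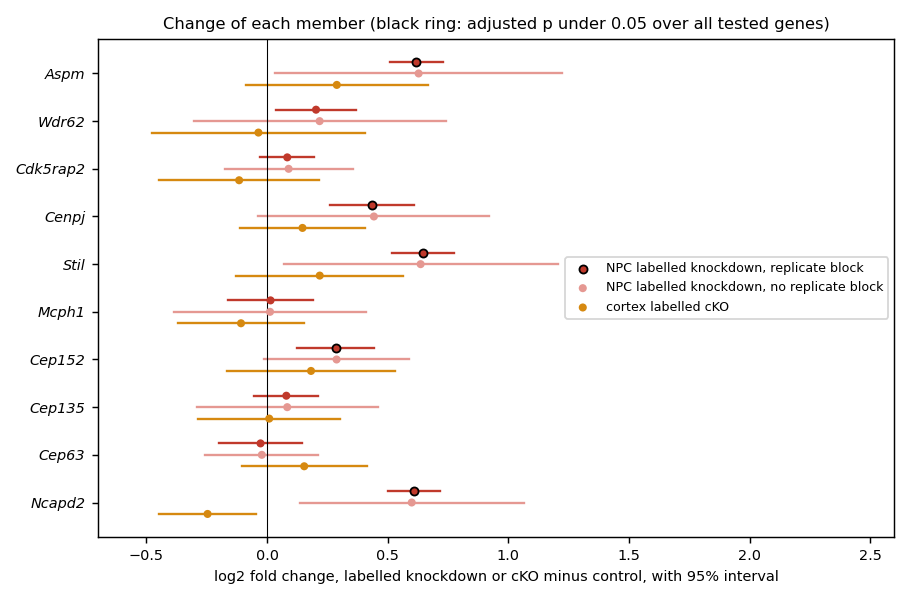
Log2 fold change of each gene (horizontal axis, labelled knockdown or cKO minus control; points, with lines for 95% intervals) in NPC with and without the replicate block and in cortex. Black rings mark an adjusted p under 0.05: 5 genes in NPC with the block, 0 without it and 0 in cortex.

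The levels of the 10 genes also varied with the replicate number in NPC. Replicate 1 was the highest library for 10 of 10 genes in labelled knockdown and for 9 of 10 in controls, with Cep63 as the exception. Replicate 3 was the lowest for 9 of 10 genes in labelled knockdown and for 8 of 10 in controls. Across genes, with each group mean removed, the 45 pairs of members had a median correlation of 0.949 over the 6 NPC libraries (0.477 to 0.996), which share depth and normalisation within a library. In cortex the median over 6 libraries was 0.441, from -0.714 to 0.992, with 13 of 45 pairs negative. Neither the correlation of pairs of other genes nor the share of all genes highest in replicate 1 was worked out. The values are therefore not shown to be particular to the 10 genes. Control cortex replicate 2 was highest for 7 genes and control replicate 1 was lowest for 8. Control replicate 2 was also a library with Ttr above 1000 CPM. It had the lowest summed meningeal fibroblast markers in cortex (24.4 CPM, against 128 to 248 CPM in the others). Control replicate 1 had the highest summed erythroid markers (43 CPM, against 7.87 to 16.3 CPM). The part of these differences in the members' values was not tested.

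**Figure D3:**
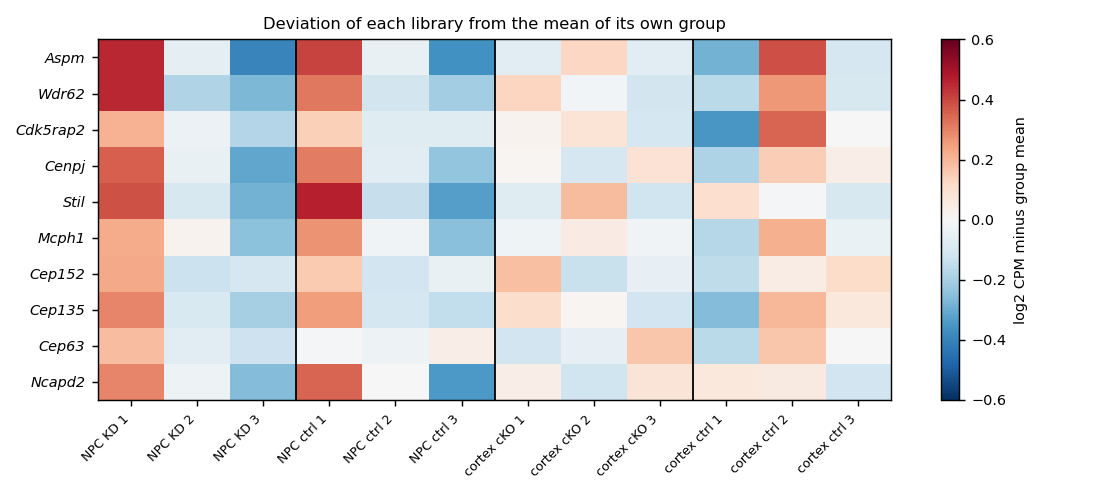
Deviation of each library (columns) from its group mean, in log2 CPM, for the 10 genes (rows); red is above and blue below the mean. The NPC columns show replicate 1 above the mean for nearly all genes in both groups, up to 0.47, and replicate 3 mostly below it, down to -0.40; in cortex, control replicates 1 and 2 deviate in opposite directions for most genes, and the labelled cKO columns are paler.

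The other genes that vary with a member within the groups were listed by the highest correlation of these deviations over all 12 libraries (8 residual degrees of freedom, 16568 genes searched). Aspm was most like Mcph1 (r = 0.987) and Mllt10 (r = 0.971), and Mcph1 was most like Cdca2 (r = 0.987) and Aspm. Aspm and Mcph1 thus shared their spread between libraries while their fold changes in NPC were 0.62 and 0.01 on the log2 scale. Stil was most like Ift80 and the checkpoint kinase gene Bub1b (r = 0.979 each), and Ncapd2 was most like Arhgap11a (r = 0.991) and Hmgb3 (r = 0.983). For Cenpj the closest genes were 2700049A03Rik (r = 0.989) and Tbc1d31 (r = 0.974), and for Wdr62 they were Phip (r = 0.983) and Pds5a (r = 0.978). Cdk5rap2 was closest to Spaca6 (r = 0.992) and Zfp334 (r = 0.986), and Cep135 to Amer1 (r = 0.995) and Senp1 (r = 0.985). The lowest best matches were those of Cep152 with Xpo6 (r = 0.961) and Rps6kb1 (r = 0.940) and of Cep63 with Lmod3 (r = 0.928) and Ranbp10 (r = 0.922).

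General proliferation markers rose in NPC as well. All 7 of Mki67, Top2a, Ccnb1, Ccna2, Cdk1, Pcna and Mcm2 were called higher with the block, with a median log2 fold change of 0.47, and 0 of 7 were called without it. Their summed level was 2893, 2228 and 1918 CPM in labelled knockdown replicates 1 to 3, against 2215, 1630 and 1289 CPM in controls. Replicate 1 was highest and replicate 3 lowest in both groups, as for most of the 10 genes, and its part in the members' change was not tested. Ncapd2 amounted to 14.1%, 14.6% and 14.5% of that sum in labelled knockdown and to 12.6%, 13.4% and 13.4% in controls, with no overlap between the groups. Stil was likewise higher without overlap, at 2.63%, 2.46% and 2.51% in labelled knockdown against 2.34%, 2.09% and 2.31% in controls. Aspm was 8.07%, 7.37% and 6.75% against 6.67%, 6.65% and 6.74%, above every control but in replicate 3 by almost nothing. Mcph1 went the other way, at 0.699%, 0.788% and 0.761% in labelled knockdown against 0.938%, 1.04% and 1.12% in controls. Relative to proliferation markers, Cdk5rap2 was also lower without overlap, at 9.09%, 9.98% and 10.5% against 10.8%, 12.6% and 15.9%. Wdr62 (1.25%, 1.05% and 1.15% against 1.31%, 1.32% and 1.56%) and Cep135 (1.57%, 1.57% and 1.69% against 1.90%, 2.01% and 2.48%) were lower without overlap as well. For Cenpj, Cep152 and Cep63 the groups overlapped. The marker sum was itself higher in labelled knockdown in each pair, so a gene whose own level did not change has a lower ratio. The share of all genes that separate on this ratio was not worked out. These ratios are a description with no test.

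Genes that work beside the 10 were described by lists from textbook roles, each counted in the blocked NPC fit, in which 11.9% of all genes rose and 12.8% fell. Of 19 other primary microcephaly genes measured, 9 rose and 1 fell, with a median log2 fold change of 0.25. The kinetochore motor Cenpe rose by 0.58, the lysolipid transporter Mfsd2a by 0.95 and the checkpoint kinase Bub1 by 0.51 on the log2 scale, while Rrp7a, a ribosome biogenesis gene, fell by 0.38. Zfp335, Phc1 and Cdk6 had log2 fold changes of -0.01, -0.08 and -0.25 and did not pass the test. Knl1 and Trappc14 were not analysed here. Among 16 genes of Seckel and Meier-Gorlin syndromes, which also reduce brain or body growth, 10 rose and 0 fell (median 0.28), led by the replication genes Mcm5 (0.45), Cdc6 (0.51) and Gmnn (0.52). Atr, the replication stress kinase, rose by 0.26, and Atrip (0.07) and Rbbp8 (0.14) did not pass the test.

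Of 15 genes of centriole duplication 8 rose and 1 fell (median 0.23). Plk4, the kinase that triggers duplication, rose by 0.47, the cartwheel gene Sass6 by 0.38, Cep192 by 0.26, Cntrob by 0.44 and Cep295 by 0.35, while Ccp110, which caps centrioles, fell by 0.29. In the pericentriolar material 2 of 12 genes rose and 0 fell, with a median of 0.09, a share near that of all genes. These were the scaffold gene Pcnt (0.30) and Tubgcp4 of the gamma-tubulin ring complex (0.24), and Tubg1 and Tubgcp2 had log2 fold changes of 0.16 and -0.01 that did not pass the test. In the spindle list 8 of 12 rose and 0 fell (median 0.38), including Hmmr (0.71), the motor Kif11 (0.51), the kinase Aurka (0.59) and its activator Tpx2 (0.56), whereas Numa1 (0.12) did not pass.

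The kinetochore and checkpoint list had 9 of 10 genes higher (median 0.34), including the centromeric histone Cenpa (0.63), the Ndc80 complex genes Nuf2 (0.53), Spc24 (0.50) and Ndc80 (0.33), and Bub1b (0.44). All 7 other condensin subunits rose (median 0.38), from Ncaph2 (0.21) to Ncapg2 (0.58), and Ncapg, Smc4, Smc2 and Ncaph rose by 0.54, 0.44, 0.38 and 0.37. In the list of cell cycle gene regulators 10 of 16 rose and 1 fell (median 0.31). Foxm1 rose by 0.50, E2f8 by 0.52, Rbl1 by 0.44 and the MuvB gene Lin9 by 0.28, E2f4 fell by 0.23, and Lin37 (-0.26) and Lin52 (0.15) did not pass the test. Some genes stand in more than one list: Sass6, Pcnt, Ncaph and Ncapd3.

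Of 10 genes in the list for mitotic surveillance and p53, 1 rose and 2 fell, with a median of -0.07, again near the shares of all genes. Usp28, which stabilises p53 when centrosomes are lost, rose by 0.20, the p53 targets Cdkn1a and Mdm2 fell by 0.38 and 0.25, and Trp53bp1 (-0.11) and Trp53 (0.01) did not pass the test. Without the replicate block, edgeR called 0 genes in these 10 lists, while DESeq2 called Rrp7a lower and Cntrob and Hmmr higher, and one edgeR fit of all 12 libraries called Rrp7a lower and Tfdp1 higher. Leaving out replicate 3 with the block kept lowered the genes called higher to 3 in the Seckel and Meier-Gorlin list, 4 for centriole duplication, 6 for cell cycle regulators, 6 for the kinetochore and 0 for the pericentriolar material and for p53. DESeq2 with the block called 5 higher for centriole duplication and 0 for p53. Nasp, a histone chaperone, had a log2 fold change of 0.28 in NPC (adjusted p = 0.00225 with the block, 0.441 without it and 0.0511 with the block but without replicate 3, edgeR). Cell type markers moved with the treatment too in the blocked fit. Among those of other cell types, 3 of 4 astrocyte markers (Aldh1l1, Aqp4 and S100b) rose and Gfap fell, with a summed level of 666 to 876 CPM in labelled knockdown and 520.5 to 619 CPM in controls. Of 4 endothelial markers 3 were tested, and Flt1 fell by 1.14 on the log2 scale (adjusted p = 5.29e-06 with the block and 0.0387 without it, edgeR). The other 2 tested had log2 fold changes above 0 and were not called (list median 0.02). The sum of the 4 was 9.37 to 11.2 CPM in labelled knockdown and 15.3 to 20.5 CPM in controls, without overlap. Btg2, of 3 intermediate progenitor markers, rose by 0.48, with a list sum of 119 to 171 CPM in labelled knockdown and 92.3 to 111 CPM in controls, again without overlap. Pdgfra, of 5 oligodendrocyte lineage markers, fell by 0.58, while the other 4 had log2 fold changes above 0 and were not called (list median 0.07). Their list sum was higher without overlap, at 2907 to 2980 CPM in labelled knockdown and 2775 to 2851 CPM in controls. Of all single genes tested in NPC, 23.5% separated without overlap, and the share for sums of genes was not worked out. The 4 astrocyte markers, Btg2 and Pdgfra were not called without the block in edgeR. The part of these markers in the members' change was not tested. Sums of 4 microglial and 4 erythroid markers were at most 1.55 CPM in every NPC library.

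**Figure D4:**
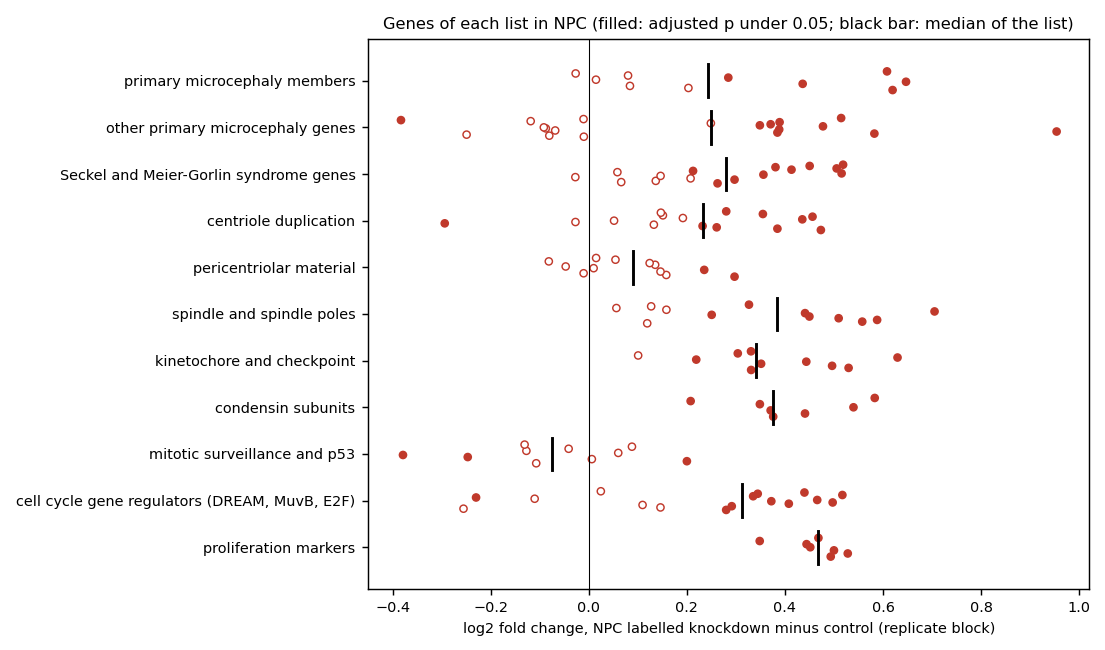
Log2 fold change in NPC (horizontal axis, labelled knockdown minus control, replicate block) of the genes of each list (rows); filled points have an adjusted p under 0.05 and black bars are list medians. Medians run from -0.07 for the mitotic surveillance and p53 list to 0.47 for proliferation markers, with 0.24 for the 10 primary microcephaly genes.

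In cortex, none of the 10 genes passed the test between labelled cKO and control, where 0.171% of 15781 genes tested were called. At an unadjusted p under 0.05, 1 of the 10 (Ncapd2) passed, a share near the 10.9% of all genes, and DESeq2 called 0 of the 10. The median log2 fold change of the 10 was 0.08, with 6 above and 4 below 0. Ncapd2 had 67.49, 60.56 and 69.37 CPM in labelled cKO, against 81.80, 81.23 and 72.35 CPM in control cortex. All 3 labelled cKO libraries lay below the lowest control, as did 9.52% of all genes, and the log2 fold change was -0.25 (SE 0.09, unadjusted p = 0.0204, adjusted p = 0.345, edgeR's quasi-likelihood test). It was the one member whose cortex groups did not overlap, and the share of all genes without overlap in either direction is not given here.

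The other members overlapped between the cortex groups. Aspm had 14.54, 16.58 and 14.53 CPM in labelled cKO and 10.06, 16.03 and 11.43 CPM in control cortex, where control replicate 2 reached the labelled cKO range. Its log2 fold change was 0.29 (95% interval -0.09 to 0.67), and it depended on single control libraries: 0.15 without control replicate 1, 0.51 without control replicate 2 and 0.54 without the libraries above 1000 CPM of Ttr, none of which passed the test. Stil had 7.47, 8.97 and 7.21 CPM in labelled cKO and 7.29, 6.76 and 6.36 CPM in control (log2 fold change 0.22, 95% interval -0.13 to 0.56, and 0.12 without cKO replicate 2). Cdk5rap2 had 64.09, 66.85 and 58.62 CPM in labelled cKO, inside the control range of 52.82 to 85.88 CPM, with a log2 fold change of -0.12. Mcph1 and Wdr62 (log2 fold changes of -0.11 and -0.04) had labelled cKO levels of 19.69 to 20.71 CPM and 4.07 to 4.82 CPM, against 19.11 to 24.99 CPM and 4.01 to 5.40 CPM in control. The signs of Cdk5rap2, Mcph1 and Wdr62 turned when the libraries above 1000 CPM of Ttr were left out, to 0.13, 0.01 and 0.16. Cep152, Cep63, Cenpj and Cep135 had log2 fold changes of 0.18, 0.15, 0.15 and 0.01. When single libraries were left out, Cep152 ran from 0.087 (without cKO replicate 1) to 0.25, Cep63 from 0.058 (without cKO replicate 3) to 0.25 (without control replicate 2) and Cenpj from 0.052 (without control replicate 1) to 0.23 (without control replicate 2).

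In the surrounding lists edgeR called 0 genes in each of the 10 in cortex, with medians from -0.06 to 0.07. DESeq2 called Cdkn1a and Ccng1 higher and Tubgcp5 and Donson lower, and edgeR without a count filter called the first 3 of these. Summed proliferation markers were 285, 298.5 and 263 CPM in labelled cKO cortex and 280.5, 288.0 and 266 CPM in control cortex. Of 5 oligodendrocyte lineage markers, edgeR called Gpr17 lower in labelled cKO and did not call the other 4. Their sum was 207.5 to 210.1 CPM in labelled cKO cortex and 245.9 to 266.8 CPM in control cortex. Cdkn1a, the p53 target that stops the cell cycle, had a log2 fold change of 0.79 there that did not pass the test (adjusted p = 0.0706) but passed with DESeq2 (0.000369) and without a count filter (0.0224). Nasp fell by 0.58 (adjusted p = 0.00692, edgeR). Its call was lost in one fit of all 12 libraries (adjusted p = 0.0942), with a replicate block (0.0735), without cKO replicate 1 (0.106) and without cKO replicate 3 (0.0612).

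The difference between the effects in NPC and in cortex was tested directly. In one model of all 12 libraries without a block, 0 of the 10 genes passed, while 1.46% of 16569 genes were called. At an unadjusted p under 0.05, 1 of the 10 (Ncapd2) passed, beside 14.2% of all genes. Ncapd2 had a log2 difference of 0.86 (SE 0.23, adjusted p = 0.0861), made of 0.61 in NPC and -0.25 in cortex. With the replicate block within NPC it was 0.87 (SE 0.11, adjusted p = 0.000905), the single member called among 5.05% of all genes, and DESeq2 gave 0.85 (adjusted p = 0.0105). The fit with that block also called 2 of 7 other condensin subunits and 4 of 7 proliferation markers, all with differences above 0. Stil had 0.44 and Aspm 0.34 with that block and did not pass the test (adjusted p = 0.102 and 0.353), so a difference between the systems was not detectable for them. In the model without a block, leaving out single libraries moved Aspm from 0.088 (without NPC labelled knockdown replicate 1) to 0.57 (without NPC control replicate 1) and Stil from 0.21 to 0.70 at the same libraries.

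Levels in the 2 systems were compared between control libraries. For 7 of the 10 genes the level was called higher in NPC controls than in control cortex, in a comparison that called 78.9% of 15676 genes and 38.4% as higher. Aspm averaged 114 ± 30.8 CPM in NPC controls and 12.5 ± 3.12 CPM in control cortex (SD, n = 3 each), a 9.04-fold difference. The log2 differences were 3.18 for Aspm, 2.49 for Stil, 2.36 for Wdr62, 1.64 for Cdk5rap2, 1.61 for Cep152, 1.49 for Ncapd2 and 0.95 for Cep135, with adjusted p-values up to 0.000343 in edgeR's quasi-likelihood test. Mcph1, Cenpj and Cep63 did not pass (log2 differences of -0.33, -0.27 and -0.11). Without NPC control replicate 1, 9 of the 10 were called, with Mcph1 (log2 difference -0.47) and Cenpj (-0.42) lower in NPC, and without cortex control replicate 1 Mcph1 was called lower (-0.44). In the same comparison all 7 proliferation markers were called higher in NPC controls, with a median log2 difference of 2.77, beside 1.55 for the 10 genes. All 5 neuron markers were called lower (median -8.07). The part of cell composition in the members' levels was not tested. Culture, tissue and preparation differ together between these libraries and cannot be told apart.

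Per kilobase of exon, Ncapd2 had the highest level in each of the 4 groups, at 53.7 ± 10.4 CPM per kb in NPC labelled knockdown, 35.6 ± 8.52 in NPC controls, 10.5 ± 0.740 in labelled cKO cortex and 12.5 ± 0.846 in control cortex (SD, n = 3 each). In each group its lowest library lay above the highest library of Cdk5rap2, the next gene. In NPC controls Cdk5rap2 (16.6 ± 1.48) stood above Aspm (9.86 ± 2.66) without overlap. Aspm, Stil (6.66 ± 2.02), Cep135 (4.95 ± 0.783), Wdr62 (4.09 ± 0.828), Cep152 (3.79 ± 0.381), Cenpj (3.42 ± 0.678) and Cep63 (2.96 ± 0.0754) followed, each overlapping its neighbour. Mcph1 was lowest at 2.23 ± 0.407, below Cep63 without overlap. In labelled knockdown NPC, Stil (10.3 ± 2.53) separated from Cep135 (5.23 ± 0.969), and Aspm (15.2 ± 4.56) overlapped Cdk5rap2 (17.6 ± 2.42).

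The order differed in cortex. Cenpj and Cep63 followed Ncapd2 and Cdk5rap2 there, at 4.48 ± 0.290 and 3.49 ± 0.364 CPM per kb in labelled cKO and 4.07 ± 0.472 and 3.15 ± 0.363 in control, and their ranges did not overlap each other in either group. Aspm was next to lowest, at 1.31 ± 0.102 in labelled cKO and 1.08 ± 0.270 in control, and its libraries overlapped those of Stil in both groups. Wdr62 was lowest, at 0.768 ± 0.0657 in labelled cKO and 0.791 ± 0.131 in control.

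**Figure D5:**
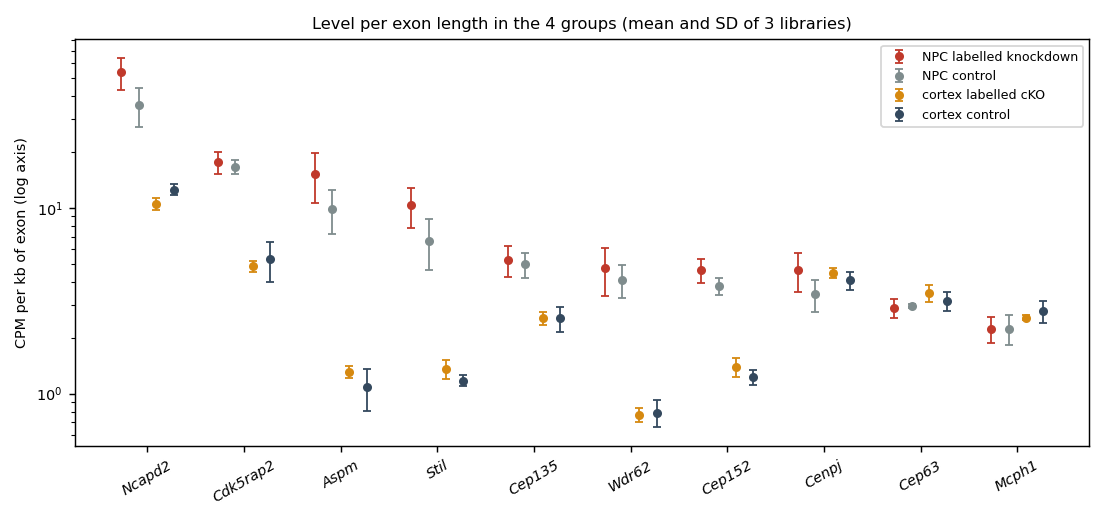
Level of each gene in CPM per kb of exon (log axis; mean and SD of 3 libraries) in the 4 groups, ordered by NPC controls. Ncapd2 is highest in all groups, and Aspm, Stil and Wdr62 drop furthest in cortex while Cenpj, Cep63 and Mcph1 stay near their NPC level.

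Some members share their locus with other genes on mm10, and no source used here states the strand setting of the counting. Cep63 (chr9:102584588-102626534) shares 239 exon bases with Anapc13 on the opposite strand, which had 666 to 931 counts per library, so its reads and those of Anapc13 cannot be told apart there. Mcph1 (chr8:18595131-18803189) holds Angpt2 on the opposite strand within an intron, with no shared exon bases; Angpt2 had 1834 to 3096 counts in NPC labelled knockdown and 2585 to 3437 in NPC controls. Wdr62 (chr7:30240138-30280419) shares 264 exon bases with Thap8, which had at most 13 counts, and Ncapd2 (chr6:125168007-125191701) shares 237 with Scarna10, at most 6 counts. Cdk5rap2 (chr4:70216856-70410443) shares 365 with the pseudogene Ywhaq-ps3. Mcph1 also shares 190 exon bases with Gm16725 on the opposite strand, and Ncapd2 shares 235 with Gm28967 on the same strand. Ywhaq-ps3, Gm16725 and Gm28967 are not among the counted genes.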

How the data were processed

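Total RNA was sequenced from 12 libraries. The authors aligned reads with HISAT2 to mm10, per the submitters' processing notes, and deposited raw counts per gene, 1 column per library; no source used here states the counting program, annotation or strand setting. Counts were normalised by TMM and tested with edgeR 4.0.16 (R 4.3.3; filterByExpr, quasi-likelihood, Benjamini-Hochberg over all genes tested, called under 0.05). DESeq2 1.42.0 was an alternative. CPM values use TMM factors over all 12 libraries, and each fit uses its own. Exon lengths and positions came from GENCODE release 21 (mm10). The NPC fit has the replicate number as a block because the rule that set the 10 genes also asked for same-numbered NPC pairs. Same-numbered residuals correlated at 0.386, 0.376 and 0.357 in NPC, and those of unlike numbers at -0.23 to -0.115. In cortex, where no block was used, same-numbered residuals correlated at 0.00171, -0.151 and -0.0272. These correlations come from the tested libraries and are no independent check of the pairing. The labels do not say what a number stands for; in NPC, sex, read from Ddx3y, follows it, so the block takes up sex too. The 10 genes, the lists, the rule for named genes (members, Srsf10, Nasp, Cdkn1a, the first 3 and up to 3 top called genes of each list, closest and overlapping genes, cell type markers) and the tests were chosen with earlier results of these data known; list genes beyond that rule were named after their values were seen. The scripts were tested on simulated data. Precision is set by the spread of 3 libraries per group as well as by depth; standard errors and 95% intervals are from the fits. Figures were drawn with matplotlib 3.10.9.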

Additional observations from a re-analysis of the deposited data

Results flagged for a closer look

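The effects of the treatments on Ncapd2 differed between NPC and cortex by a log2 value of 0.87 when the replicate block was kept within NPC (adjusted p = 0.000905, edgeR's quasi-likelihood test of the interaction). The test of the difference itself drew attention to it. The gene was higher in 3 of 3 NPC pairs, as were 25.8% of all genes tested there. Its 3 labelled cKO libraries lay below the 3 control cortex libraries, as did those of 9.52% of all genes tested in cortex. In cortex alone the change of Ncapd2 did not pass edgeR's quasi-likelihood test (adjusted p = 0.345). Without a block the difference was 0.86 (adjusted p = 0.0861). A call in the blocked fit was not particular to Ncapd2, since 5.05% of all genes were called there. Among related genes it called 2 of 7 other condensin subunits (Ncapg and Smc4) higher and 0 lower. Of 7 proliferation markers it called 4 (Ccna2, Pcna, Mcm2 and Top2a) higher and 0 lower. Without the block, 0 genes of these lists were called.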

How the results depend on the processing

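The NPC calls depend on the replicate block. With it, 5 of the 10 genes and 3522 of all genes were called; with no replicate block these were 0 and 270, with DESeq2 and no block 1 (Ncapd2) and 1012, and in one fit of all 12 libraries 0 and 654. Leaving out a replicate number in NPC gave 4 to 5 of the 10 and 1636 (without replicate 3) to 4376 of all genes, with 2170 without replicate 2. In cortex the count of all genes, 27, became 156 with no count filter, 338 with DESeq2, 49 in one fit of all libraries, 1 with a replicate block, 12 with sex as a covariate and 0 (without cKO replicate 1) to 28 when a replicate was left out, with 1 without cKO replicate 3 and 16 without cKO replicate 2. None of these settings called any of the 10 genes in cortex. For the difference between systems the count of all genes, 242, became 783 with DESeq2, 836 with the replicate block within NPC and 98 to 275 when a replicate was left out; 1 of the 10 genes (Ncapd2) was called with no filter, with DESeq2, with that block and without NPC control replicate 1, and 0 without any other library. NPC control against cortex control called 7 to 9 of the 10 and 12003 to 12324 of all genes when a replicate was left out.

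Directions turned only for values that did not pass the test. In cortex, without the 2 Ttr-rich libraries the log2 fold changes were 0.16 for Wdr62, 0.13 for Cdk5rap2 and 0.014 for Mcph1. Leaving out each replicate in turn, they ran from -0.12 to 0.11 for Wdr62, -0.28 to 0.083 for Cdk5rap2, -0.20 to 0.012 for Mcph1, -0.12 to 0.12 for Cep135 and -0.0092 to 0.11 for Srsf10. In NPC the same gave -0.00053 to 0.033 for Mcph1, -0.13 to 0.058 for Cep63, -0.057 to 0.018 for Zfp335, -0.028 to 0.20 for Atrip, -0.040 to 0.023 for Tubgcp2 and -0.018 to 0.023 for Trp53, and one fit of all libraries gave 0.00054 for Zfp335 and 0.00025 for Tubgcp2. For the difference between systems it gave -0.0074 to 0.20 for Cep152 and -0.075 to 0.22 for Cep135. The cause of these changes was not tested. Wdr62 in cortex rests on the fewest reads of the 10 genes.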
